A study of Mus musculus with 6 samples.

Results

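The genes described here belong to the BCL2 family, whose proteins decide at the outer mitochondrial membrane whether a cell lives or dies. Members were taken as every probe set that the platform's annotation pairs with Bcl2, Bcl2l1, Mcl1, Bcl2l11, Bax, Bak1, Bbc3, Bid, Bad or Bmf alone. Of these 10 genes 9 had a probe set of their own, 1 each, out of 19938 genes so represented in the table. Bax was not analysed here. The measured members are 3 anti-apoptotic genes (Bcl2, Bcl2l1 and Mcl1) and 6 pro-apoptotic genes (the effector Bak1 and the BH3-only genes Bcl2l11, Bbc3, Bid, Bad and Bmf).

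The old group held 3 arrays from BALB/c mice, an inbred laboratory strain, at 24 months of age. The young group held 3 arrays from BALB/c mice at 2 months. All 6 arrays carried RNA of sorted pro-B and pre-B cells, studied together without any treatment. These are the bone marrow progenitors that are rearranging immunoglobulin genes. The labels do not say if mice were pooled for an array. The p-values therefore cover no more than the spread among these 6 arrays, whose number limits the precision. All values below are log2 of the deposited probe set intensity, and differences are old minus young.

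Anti-apoptotic members hold the effectors Bax and Bak1 in check. BH3-only proteins are the triggers. They bind and neutralise the anti-apoptotic members, and some of them also activate the effectors directly, after which the mitochondrion releases cytochrome c and caspases are switched on. In mouse B cell progenitors, signals of the interleukin-7 receptor sustain Mcl1 and Bcl2 and restrain Bcl2l11, which encodes Bim. Cells that fail to make a working antigen receptor are lost by this route.

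Upstream sequence is shown for Bcl2l11 and Bbc3, BH3-only genes known as targets of FoxO transcription factors. They were the BH3-only members without overlap between the age groups. They were also the only ones of the 10 genes with a match to the motif below, and the window shown for each was chosen for its match. Capitals mark the forkhead motif GTAAACA, searched on both strands, so that TGTTTAC is the same motif read on the opposite strand. Each sequence is the 250 bases before a RefSeq gene start in build GRCm38.p6, plus strand, at chr2:128125788-128126037 for Bcl2l11 and chr7:16310011-16310260 for Bbc3.
Bcl2l11: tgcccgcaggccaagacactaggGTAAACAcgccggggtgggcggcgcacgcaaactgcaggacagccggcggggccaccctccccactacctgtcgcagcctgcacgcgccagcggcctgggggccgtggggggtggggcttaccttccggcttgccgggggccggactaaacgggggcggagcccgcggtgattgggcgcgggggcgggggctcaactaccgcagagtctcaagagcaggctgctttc
Bbc3: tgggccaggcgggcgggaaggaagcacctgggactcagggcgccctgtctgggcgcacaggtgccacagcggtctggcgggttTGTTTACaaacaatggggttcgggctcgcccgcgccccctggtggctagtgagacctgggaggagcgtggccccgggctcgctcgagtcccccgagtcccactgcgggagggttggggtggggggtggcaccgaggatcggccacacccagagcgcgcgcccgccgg
The motif begins 227 bases before the start in Bcl2l11 and 167 bases before it in Bbc3. Both genes have other annotated starts, whose windows hold no match. It was found in 2 of 18 windows of 300 bases of the 10 genes, and in 3.65% of all 32851 such windows. A match is a description of these letters and not a binding site.

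The arrays did not resemble each other equally, and this bears on every member. Across the tested probe sets, old replicates 1 and 2 correlated at 0.607 to 0.702 with the young arrays and old replicate 3 at 0.978 to 0.985, as a description of arrays and not of replicates. Background was set for each array from genes of smell and pheromone receptors, which marrow cells are not known to use. It is the 95th percentile over 1212 such probe sets and is called the receptor level below. It lay at 6.28, 6.20 and 5.02 on old replicates 1 to 3 and at 4.74, 4.74 and 4.57 on young replicates 1 to 3. Of the 9 members, 2, 2 and 6 lay above it on old replicates 1, 2 and 3, against 8, 7 and 8 on the young arrays. Of 11 measured pro-B and pre-B markers 5, 7 and 11 lay above it on the old arrays and all 11 on each young array. The part of the array difference in each result was not tested, so each is given for all arrays, for old replicates 1 and 2, and for old replicate 3 alone.

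No BCL2 family member passed the test between 3 old and 3 young arrays. With limma at an adjusted p under 0.05, 0 of 9 members were called, against a background of 0% of the 23410 probe sets tested. At an unadjusted p under 0.05 there were 3 members, Bcl2l1, Bcl2l11 and Bbc3, against a background of 46.8%. Of the 9 members 7 had a lower mean in the old group and 2, Bbc3 and Bad, a higher one. The groups did not overlap for 3 of 9 members, against 59% of all probe sets. These were Bcl2l1 and Bcl2l11, lower on all old arrays (22.9% of all probe sets), and Bbc3, higher on all old arrays (36.1%). For these 3 genes an exact permutation test over the arrays gave p = 0.1, 2-sided, the smallest that 3 against 3 arrays allow.

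**Figure D1:**
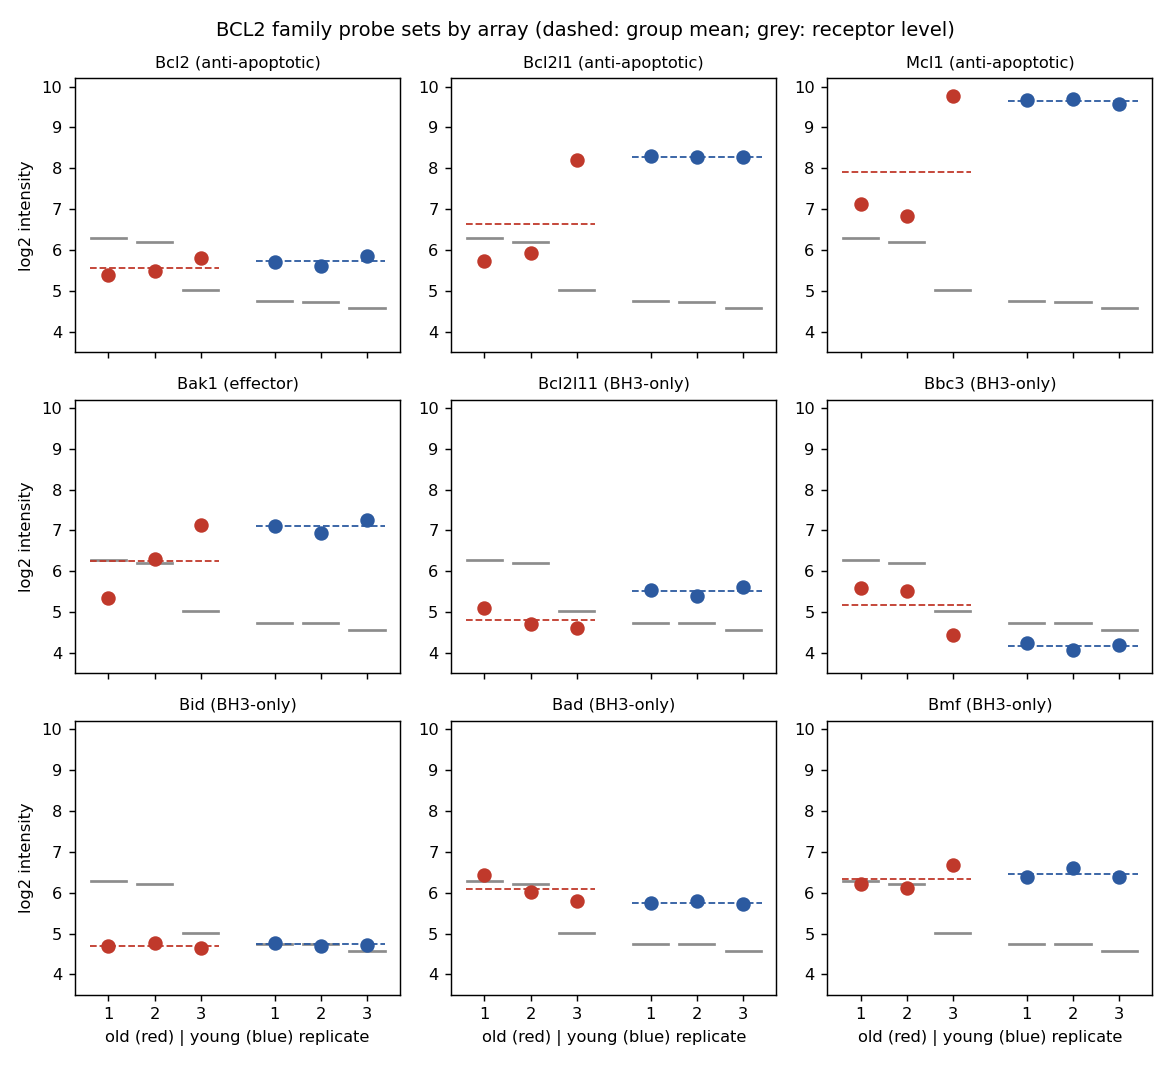
Log2 intensity (vertical axis) of the 9 BCL2 family probe sets on each old (red, left) and young (blue, right) array, with group means dashed and the receptor level of each array in grey. Mcl1 and Bcl2l1 stand high on old replicate 3 and the young arrays and low on old replicates 1 and 2, whereas all 3 old values of Bcl2l11 lie below the young values.

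Among the survival genes, Mcl1 and Bcl2l1 were split within the old group, and Bcl2 varied less. Mcl1, a short-lived protein that B cell progenitors need to survive, measured 7.13, 6.84 and 9.77 on old replicates 1, 2 and 3, against 9.66, 9.70 and 9.56 on young replicates 1, 2 and 3. It was the only member above the receptor level on all 6 arrays. Old replicates 1 and 2 were lower than every young array, and old replicate 3 was higher than every young array. The mean was 7.92 ± 1.61 in the old and 9.64 ± 0.07 in the young group (SD, n = 3 each), a difference of -1.73 ± 0.74 (SE) that did not pass the threshold (limma adjusted p = 0.109). Old replicate 3 alone differed from the young arrays by 0.13, with a 95% confidence interval of -0.17 to 0.43. Quantile normalization of the 6 arrays brought the difference of Mcl1 to -0.37 (limma adjusted p = 0.45).

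Bcl2l1, which encodes Bcl-xL and is a survival factor of the pre-B stage, measured 5.74, 5.93 and 8.21 on the old arrays, against 8.30, 8.28 and 8.27 on the young arrays. Old replicates 1 and 2 lay within the receptor level, while old replicate 3 lay just under the lowest young value. The difference of -1.66 ± 0.64 (SE) did not pass the threshold (limma adjusted p = 0.101). On old replicate 3 alone the difference was -0.07, with an interval of -0.36 to 0.21. The young mean was 8.29 ± 0.01 (SD, n = 3), the smallest young SD of the 9 members.

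Bcl2, the founding member, which guards resting lymphocytes more than dividing pre-B cells, measured 5.40, 5.49 and 5.80 on the old arrays, against 5.70, 5.60 and 5.86 on the young arrays. The groups overlapped. Its difference of -0.15 had a 95% interval of -0.67 to 0.37 (limma adjusted p = 0.551). The values on old replicates 1 and 2 lay within the receptor level, so the interval does not bound a difference there. The 3 anti-apoptotic members had a median difference of -1.66, against 0.35 over all probe sets tested. By array their median lay at -2.51, -2.35 and 0.09 on old replicates 1, 2 and 3 relative to the young mean. All probe sets with a young mean above 7, as of Mcl1 and Bcl2l1, had medians of -2.54, -2.22 and -0.24.

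The effector Bak1, which forms pores in the outer mitochondrial membrane, followed the split of Mcl1 and Bcl2l1 less far. It measured 5.35, 6.30 and 7.14 on the old arrays, against 7.10, 6.94 and 7.26 on the young arrays. Old replicate 3 lay inside the young range, and old replicate 1 was the only old value within the receptor level. The difference of -0.84 ± 0.44 (SE) did not pass the threshold (limma adjusted p = 0.153). It was -0.38 without old replicate 1 and -0.27 after quantile normalization.

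Bcl2l11, like Bcl2l1, lay lower on all 3 old arrays, but here old replicate 3 had the lowest value of all 6. Its product Bim is the BH3-only protein that removes self-reactive and unsupported lymphocytes. It measured 5.11, 4.71 and 4.61 on the old arrays, against 5.54, 5.39 and 5.62 on the young arrays. All 3 old values lay below every young value. The means were 4.81 ± 0.26 in the old and 5.52 ± 0.11 in the young group (SD, n = 3 each). The difference of -0.71 ± 0.23 (SE) did not pass the threshold over all probe sets (limma adjusted p = 0.101).

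The old values of Bcl2l11 lay within the receptor level and the young values above it, so the difference has no measured size. After raising the old values to that level, none of it was left over the 3 arrays, and old replicate 3 alone was at least 0.49 lower than the young mean. Against the young arrays, old replicate 3 alone differed by -0.91 ± 0.14 (SE), with a spread taken from the young arrays only (limma adjusted p = 0.0182). It was the sole member called in that comparison, where 7% of probe sets were called and 5.24% were called lower. Without young replicate 1 the call was lost (limma adjusted p = 0.0683). Of all tested probe sets, 1.71% lay at or below the deviation of Bcl2l11 on that array. The probe sets called there were 189, 927 and 3920 without young replicates 1, 2 and 3. That comparison holds a single old array and has no replicate check in the old group.

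Bbc3 was the member that stood higher on all old arrays. It encodes Puma, a BH3-only protein made in response to p53 and to FoxO factors. It measured 5.58, 5.52 and 4.43 on the old arrays, against 4.25, 4.07 and 4.19 on the young arrays. Every old value exceeded every young value, by the least on old replicate 3. The difference of 1.01 ± 0.35 (SE) did not pass the threshold (limma adjusted p = 0.101). On old replicate 3 alone it was 0.26, with an interval of -0.06 to 0.57.

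All 6 values of Bbc3 lay within the receptor level, so its difference has no measured size. Of the 10756 probe sets whose young mean lay under the mean young receptor level of 4.68, 41.0% and 36.5% were more than 1 log2 higher on old replicates 1 and 2 as well, and 0.456% on old replicate 3. Bbc3 was 1.41 and 1.35 higher on those first arrays.

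The remaining BH3-only members overlapped between the groups, and their differences changed with the scaling. Bmf, which is held on the cytoskeleton until stress or detachment frees it, measured 6.20, 6.10 and 6.69 on the old arrays, against 6.39, 6.61 and 6.39 on the young arrays. Old replicates 1 and 2 were below and old replicate 3 was above the young range, with a difference of -0.13 (95% interval -0.70 to 0.44, limma adjusted p = 0.644). Its values on old replicates 1 and 2 lay within the receptor level, so the interval does not bound a difference there. The sign turned with quantile normalization, which gave 0.54.

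Bad, a BH3-only protein switched off by growth factor signals through phosphorylation, measured 6.44, 6.01 and 5.80 on the old arrays, against 5.76, 5.80 and 5.71 on the young arrays. Old replicate 1 stood out and old replicate 3 lay inside the young range, with a difference of 0.33 (interval -0.24 to 0.89, limma adjusted p = 0.263). Old replicate 2 lay within the receptor level. The difference of Bad was 0.89 after quantile normalization, 0.07 after median centring and 0.15 without old replicate 1. Bid, which carries death receptor signals to mitochondria once caspase-8 has cut it, measured 4.70, 4.76 and 4.64 on the old arrays, against 4.78, 4.70 and 4.72 on the young arrays. Its difference was -0.03 (interval -0.49 to 0.42), and it lay above the receptor level on young replicates 1 and 3 only, so no likeness of the groups can be read from it. After median centring it was -0.29 and after quantile normalization -0.44 (limma adjusted p = 0.183 and 0.213). The 6 pro-apoptotic members had a median difference of -0.08, against 0.35 over all probe sets. By array it lay at -0.15, -0.17 and 0.04 on old replicates 1, 2 and 3. All probe sets with a young mean between 4.68 and 7, as of Bcl2l11, Bid, Bad and Bmf, had medians of 0.08, 0.05 and -0.03. Bak1 lay above that range and Bbc3 below it.

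Taking old replicates 1 and 2 against the young arrays called 6 of 9 members, against a background of 82.4% of all probe sets. Lower were Mcl1 (-2.65), Bcl2l1 (-2.45), Bak1 (-1.27) and Bcl2l11 (-0.61), 4 of 9 members against 30.2% of probe sets called lower. Higher were Bbc3 (1.38) and Bad (0.47), 2 of 9 members against 52.2% called higher. Bcl2, Bmf and Bid were not called (limma adjusted p = 0.11, 0.0761 and 0.979).

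**Figure D2:**
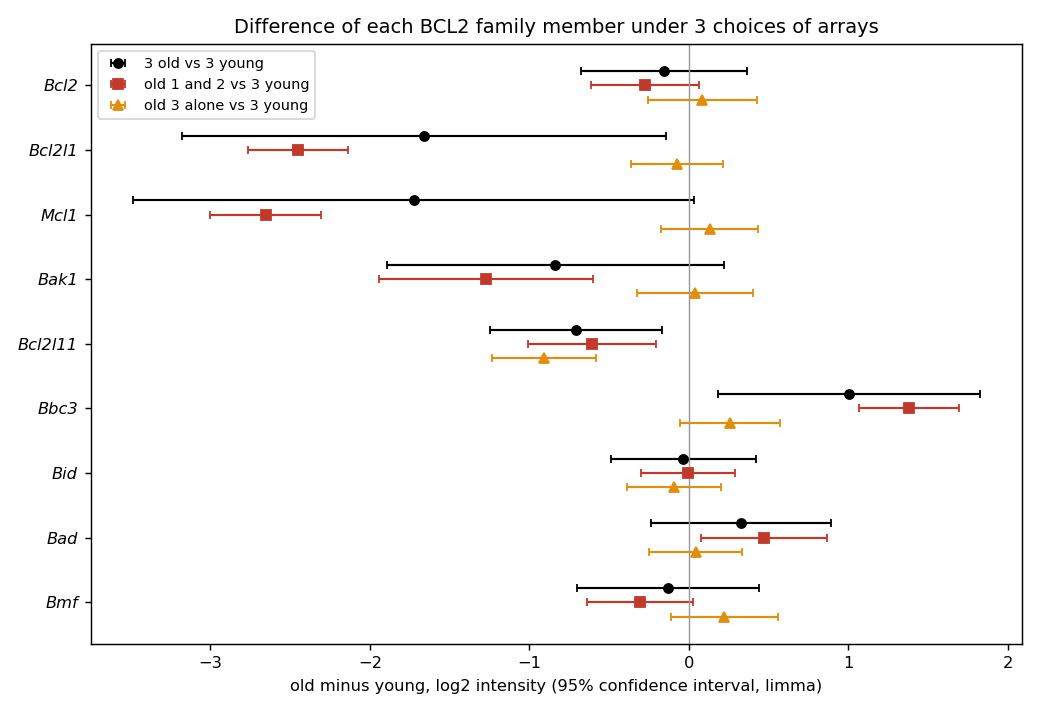
Difference of each member (old minus young, log2 intensity, horizontal axis) with its 95% confidence interval for 3 old arrays (black circles), old replicates 1 and 2 (red squares) and old replicate 3 alone (orange triangles), each against 3 young arrays. Mcl1 is at -2.65 on old replicates 1 and 2 and at 0.13 on old replicate 3, while Bcl2l11 is below 0 in all 3 comparisons.

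On old replicates 1 and 2 a probe set's deviation went with its young level. For 4817 probe sets the young mean exceeded 7, and 89.1% and 84.3% of them lay over 1 log2 unit below it on old replicates 1 and 2, with 2.47% on old replicate 3. Mcl1, Bcl2l1 and Bak1 are the members above that level. Mcl1 deviated by -2.51 and -2.80 there, Bcl2l1 by -2.55 and -2.35, and Bak1 by -1.75 and -0.80. The median of those bright probe sets was -2.54 and -2.22. The members of intermediate level, Bcl2, Bcl2l11, Bid, Bad and Bmf, deviated by between -0.80 and 0.69 on those arrays. The median of all probe sets of intermediate level was 0.08 and 0.05.

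**Figure D3:**
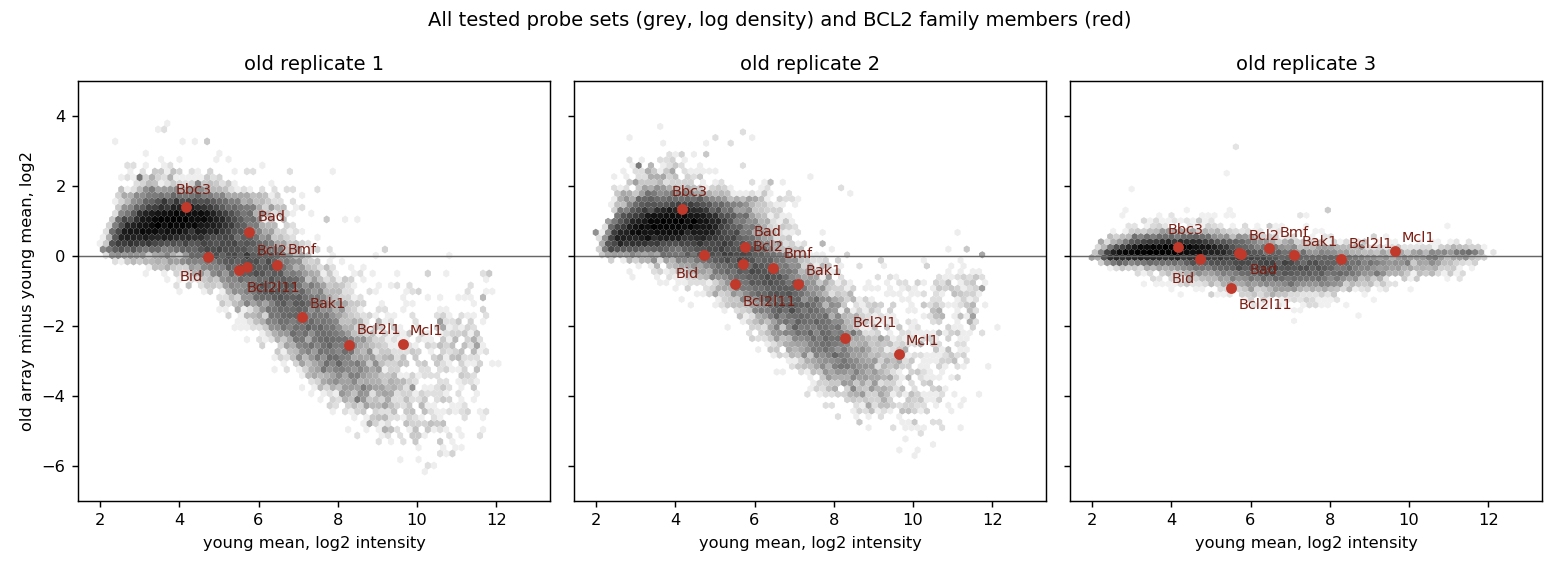
Deviation of each old array from the young mean (log2, vertical axis) against the young mean level (log2, horizontal axis) for the 23410 tested probe sets (grey, darker where denser) and the BCL2 family members (red). On old replicates 1 and 2 bright probe sets lie low and dim ones high, with Mcl1 at -2.51 and -2.80; on old replicate 3 Bcl2l11, at -0.91, lies apart from the other members.

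Genes with a profile like that of a member were sought by the Euclidean distance between deviations from the young mean over the 6 arrays. Nearest to Mcl1 were Cdkn1b (0.21), a brake on cyclin-dependent kinases, Ino80d (0.23) and Wnk1 (0.25). Nearest to Bcl2 were Pacs1 (0.08), Aunip (0.12) and Shkbp1 (0.13), and nearest to Bcl2l11 were Polr2c (0.18), a subunit of RNA polymerase II, Fbxo48 (0.20) and Bfsp2 (0.20). Nearest to Bbc3 were Bmerb1 (0.08), the histone deacetylase gene Hdac4 (0.09) and Tmem189 (0.12).

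Of 62 other apoptosis genes in 7 lists by role, 54 were measured by their own probe sets, and 0 were called between 3 old and 3 young arrays (limma, with 30 at an unadjusted p under 0.05, against 46.8% of all probe sets). Without overlap, 24 were lower on all old arrays (22.9% of all probe sets) and 13 were higher (36.1%). In old replicate 3 alone 7 were called, all lower, against a background of 5.24% called lower. They were Apaf1, Htra2, Aifm1, Vdac3, Xiap, Cflar and Myc. The number was 0, 2 and 15 without young replicates 1, 2 and 3, 2 after quantile normalization of the 4 arrays and 11 after median centring.

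Of the genes listed for mitochondrial release and the apoptosome, 8 of 10 lay lower on all old arrays, against 22.9% of all probe sets. The list includes the channel genes Vdac1, Vdac2 and Vdac3, which were among those lower. Apaf1, the scaffold on which cytochrome c activates caspase-9, measured 6.07, 5.95 and 6.84 on the old arrays, against 7.48, 7.37 and 7.55 on the young arrays. The groups did not overlap, and on old replicate 3 alone the difference was -0.62 (limma adjusted p = 0.04). Aifm1, a mitochondrial flavoprotein released in cell death, differed by -1.01 ± 0.24 (SE, limma adjusted p = 0.101) over all arrays. The list's median difference was -1.26, against 0.35 over all probe sets. By array the median lay at -1.66, -1.72 and -0.48, beside -2.54, -2.22 and -0.24 for all probe sets with a young mean above 7. Apaf1, Cycs, Diablo, Aifm1, Vdac1, Vdac2 and Vdac3 have young means above that level. Apaf1, Diablo, Htra2, Vdac1, Vdac2 and Vdac3 lay within the receptor level on old replicates 1 and 2, and Aifm1 and Cycs on old replicate 1. Their differences on those arrays have no measured size.

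The inhibitors of apoptosis, which block caspases or their activation, had lower means in 6 of 6 genes, 5 of them without overlap (22.9% of all probe sets), and a median difference of -2.12, against 0.35 over all probe sets. By array the list's median lay at -2.84, -2.75 and -0.63, beside -2.54, -2.22 and -0.24 for all probe sets with a young mean above 7. Xiap, which binds active caspases, measured 5.51, 4.45 and 5.99 on the old arrays, against 6.62, 6.65 and 6.78 on the young arrays. On old replicate 3 alone it differed by -0.69 (limma adjusted p = 0.0306). Birc2, a ubiquitin ligase of tumour necrosis factor signalling, differed by -2.09 by the brighter of its 2 probe sets and by -0.08 by the other. Xiap and the brighter probe set of Birc2 lay within the receptor level on old replicates 1 and 2, so their differences there have no measured size. Among 4 measured caspases 3 had lower means, led by the initiators Casp8 (-1.84 ± 0.70, SE) and Casp2 (-0.61 ± 0.26, SE), with limma adjusted p = 0.101 and 0.109. Casp8 lay within the receptor level on old replicate 1 and Casp2 on old replicates 1 and 2.

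The other BCL2 family genes had mostly higher means in the old group, 3 of 3 anti-apoptotic ones and 6 of 8 pro-apoptotic ones. Their median differences were 0.62 and 0.46, against 0.35 over all probe sets. By array the medians lay at 0.96, 0.48 and 0.33 for the anti-apoptotic genes. For the pro-apoptotic genes they lay at 0.76, 0.63 and 0.17. All probe sets with a young mean under 4.68 had medians of 0.90, 0.85 and 0.14. Bcl2l2, Bcl2a1c, Bcl2l10, Bik and Bcl2l14 have young means under that level. Hrk, a BH3-only gene best known from neurons, measured 7.01, 6.83 and 6.19 on the old arrays, against 5.93, 5.72 and 5.87 on the young arrays. It lay above the receptor level on all 6 arrays and the groups did not overlap, but its difference of 0.84 ± 0.27 (SE) did not pass the threshold (limma adjusted p = 0.101). Bcl2l14 (0.91 ± 0.28, SE), Bcl2l2 (0.62 ± 0.23, SE) and Bcl2l10 (0.65 ± 0.29, SE) lay within the receptor level on all 6 arrays.

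Death receptors, their adaptors and the ligand genes Tnf, Fasl and Tnfsf10 had higher means in 7 of 9 genes. The median difference was 0.51, against 0.35 over all probe sets. By array the list's median lay at 0.77, 0.51 and 0.06 on old replicates 1, 2 and 3. All probe sets with a young mean under 4.68, as of Fas, Fasl, Tnfrsf10b and Tnf, had medians of 0.90, 0.85 and 0.14. Those between 4.68 and 7, as the rest of this list, had 0.08, 0.05 and -0.03. The leading genes, Tnf (0.70 ± 0.27, SE) and the receptor gene Tnfrsf10b (0.77 ± 0.31, SE), did not pass the threshold (limma adjusted p = 0.101 and 0.103). Tnfrsf10b lay within the receptor level on all arrays and Tnf on 5 of 6.

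Among 14 upstream regulators 11 had lower means, 8 of them without overlap (22.9% of all probe sets). The list's median difference was -1.44, against 0.35 over all probe sets. By array its median lay at -1.82, -1.56 and -0.15, beside -2.54, -2.22 and -0.24 for all probe sets with a young mean above 7. Il7r, Foxo1, Akt2, Huwe1, Usp9x, Fbxw7, Myc and Jak1 have young means above that level. Foxo1, a transcription factor that activates Bcl2l11 and Bbc3 when growth factor signals fade, measured 5.32, 5.04 and 7.45 on the old arrays, against 7.49, 7.74 and 7.55 on the young arrays. Foxo3, its relative, differed by -0.47 ± 0.22 (SE, limma adjusted p = 0.125). Il7r, the receptor gene whose signals sustain Mcl1, differed by -0.01 on old replicate 3 alone, against -2.71 ± 1.06 (SE) over all arrays. Myc, which drives growth and also sensitises cells to death, measured 5.84, 6.33 and 5.999 on the old arrays, against 7.30, 6.96 and 7.95 on the young arrays. Like Bcl2l11 it was low on all 3 old arrays, and on old replicate 3 alone it differed by -1.40 (limma adjusted p = 0.0468). Usp9x, a deubiquitinase that stabilises Mcl1 protein, differed by -2.21 ± 0.68 (SE, limma adjusted p = 0.101). Foxo1, Foxo3 and Usp9x lay within the receptor level on old replicates 1 and 2, and Il7r and Myc on old replicate 1.

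**Figure D4:**
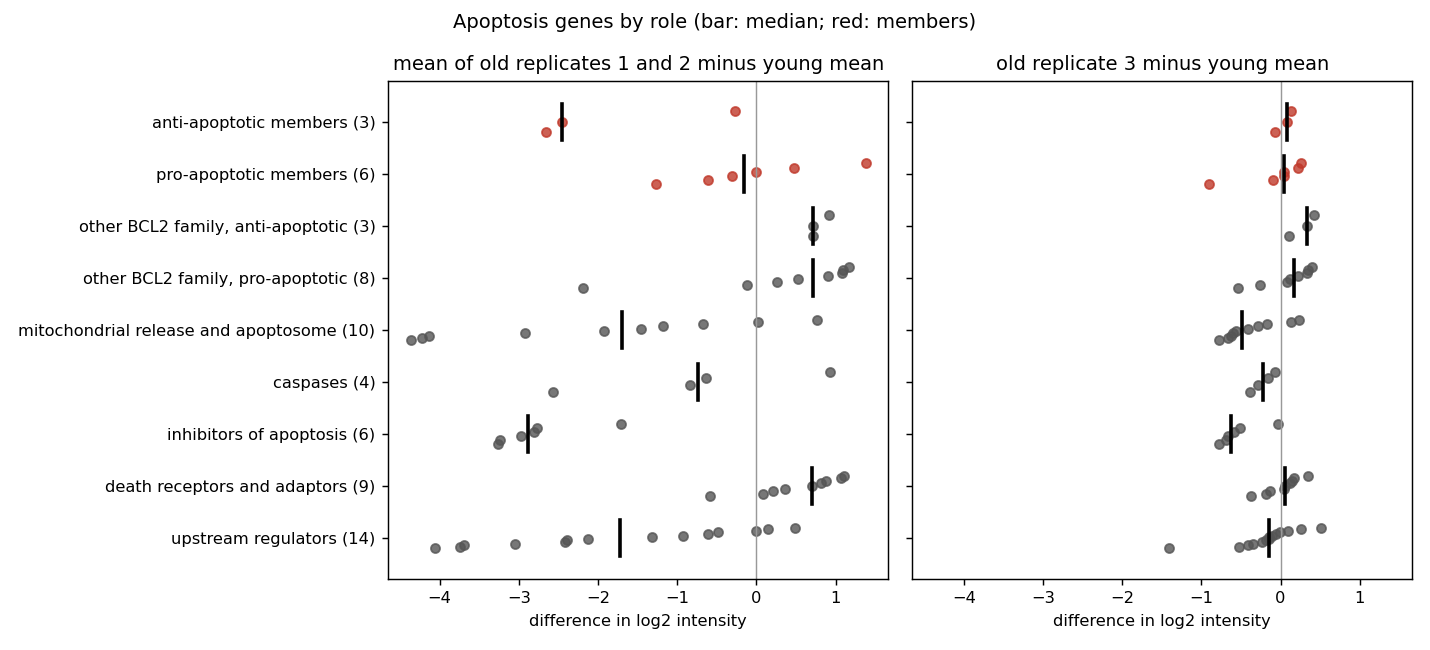
Difference from the young mean in log2 intensity (horizontal axis) for BCL2 family members (red) and other apoptosis genes (grey) by role, with black bars at list medians, for the mean of old replicates 1 and 2 (left) and old replicate 3 (right). On old replicate 3 the inhibitors of apoptosis have a median of -0.63 and the mitochondrial release genes of -0.48, while the anti-apoptotic members lie at 0.09.

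Markers of other cell types also differed between the arrays. All 10 neutrophil and myeloid markers lay above the receptor level on old replicate 3 and on each young array, but 3 and 4 of 10 on old replicates 1 and 2. Their summed level (log2 of the summed linear intensities) was 11.03, 12.25 and 13.06 on the old arrays, against 13.06, 13.00 and 13.41 on the young arrays. For the pro-B and pre-B markers it was 11.56, 12.15 and 13.20, against 13.44, 13.39 and 13.36. By their sums both lists were lowest on old replicates 1 and 2. The pre-B marker Vpreb1 was not lowest there. It measured 11.13, 11.69 and 10.82 on the old arrays, against 11.15, 10.76 and 11.07 on the young arrays. Igll1 measured 7.14, 8.93 and 7.86 on the old arrays, against 9.11, 8.77 and 9.54 on the young arrays. Dntt measured 4.56, 6.17 and 5.13, against 6.69, 6.59 and 8.18. Both Igll1 and Dntt were lower on old replicate 3 than on old replicate 2 and on every young array.

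The mature B markers summed to 8.21, 8.25 and 10.45 on the old arrays, against 10.24, 10.45 and 9.92 on the young arrays, and the plasma cell markers to 7.83, 7.54 and 8.89, against 8.87, 8.82 and 8.85. T cell markers summed to 7.88, 8.09 and 7.42 on the old arrays, against 7.07, 7.16 and 7.64 on the young arrays, and were highest on old replicates 1 and 2. Erythroid markers summed to 8.57, 8.30 and 7.88, against 7.77, 8.11 and 8.41, and macrophage and dendritic markers to 8.75, 8.38 and 8.28, against 8.43, 8.32 and 8.90. No background was subtracted from these sums, and the receptor level was highest on old replicates 1 and 2. T cell markers lay above the receptor level for 0, 1 and 2 of 6 genes on the old arrays and 1, 3 and 4 on the young arrays. For erythroid markers it was 1, 2 and 3 of 5, against 4, 5 and 5, and for macrophage and dendritic markers 2, 1 and 3 of 8, against 3, 3 and 5. For mature B markers it was 1, 1 and 6 of 6, against 6, 6 and 6, and for plasma cell markers 0, 0 and 4 of 6, against 4, 4 and 4. The part of such cells in the family's values was not tested, and in bulk RNA fewer cells of a type cannot be told apart from less RNA per cell.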

How the data were processed

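RNA of 6 arrays, 100 ng each, was amplified, biotinylated and hybridised to a whole-transcript array, per the labels' protocols. The deposited values are probe set intensities on a linear scale, from 3.58 to 8502, made by the authors with RMA according to the submitters' processing notes, with settings not given in the sources used here. Log2 was taken first. The deposited values did not share a common distribution across arrays. Their interquartile range was 1.41, 1.40 and 2.44 on old replicates 1 to 3, against 2.80, 2.76 and 2.98 on young replicates 1 to 3. The share of probe sets above the receptor level was 14.8%, 17.1% and 49.2%, against 52.9%, 53.2% and 56.3%. The table has 28940 probe sets, of which the annotation gives 21789 a single gene, 1621 several genes and 5530 no gene. The 23410 with any gene entered a fit with limma 3.58.1 (R 4.3.3), with age group as the only factor and Benjamini-Hochberg adjustment over all of them. Other steps used Python 3.11.15 with numpy 2.4.6, pandas 2.3.3 and matplotlib 3.10.9. The code was tested on simulated data.

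The members and lists were chosen with earlier results of these data known. All members are named. From each pathway list the 2 genes with the smallest p are named, with Il7r, Foxo1 and Foxo3 added, and Trp53 had no probe set of its own. For 4 members, the 3 genes with the nearest profile are named. Genes called on old replicate 3 alone, and the receptor level, were chosen after seeing values. A gene with several probe sets is given by its brightest, and bright probe sets lay low on old replicates 1 and 2. How far the counts of lower pathway genes depend on this choice was not tested. Cycs, Vdac3 and Cflar have 3 probe sets each, and values of a further probe set are given for Birc2 only.

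Both groups number their replicates 1 to 3 in the titles. Deviations from the group means correlated at 0.157, 0.15 and 0.279 for same-numbered arrays, above the limit of 0.1, so the numbers were treated as a pairing in an alternative with the replicate number as a block. Old replicate 1 correlated at 0.153 with young replicate 2 too. Other alternatives were leaving out arrays, other scaling, a filter on dim probe sets, other moderation, array weights and other thresholds.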

Additional observations from a re-analysis of the deposited data

How the results depend on the processing

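The count of called members was 0 in every alternative except 3. It was 6 without old replicate 3 (range 0 to 6 over the arrays left out), 6 with array weights, whose estimation stopped before it converged, and 1 with old replicate 3 alone. All probe sets called went with it, at 19285 without old replicate 3 (range 0 to 19285), 19998 with array weights and 1638 with old replicate 3 alone. The other apoptosis genes called were 46 without old replicate 3 (range 0 to 46), 49 with array weights and 7 with old replicate 3 alone. With the replicate number as a block 0 members, 0 pathway genes and 0 probe sets were called, so taking the numbers as a pairing changed no call.

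Median centring and quantile normalization lowered the median difference of all probe sets from 0.35 to 0.10 and 0.09. The anti-apoptotic median, -1.66 and -1.19 to -2.45 over the arrays left out, was 0.086 with old replicate 3 alone and -0.37 after quantile normalization. The pro-apoptotic median, -0.08 and -0.04 to -0.16, was 0.040 with old replicate 3 alone, -0.34 after median centring and 0.14 after quantile normalization. Signs turned for Bcl2 (0.086), Mcl1 (0.13), Bak1 (0.038) and Bmf (0.22) with old replicate 3 alone, for Bmf (0.54) after quantile normalization and for Bid (0.014) with array weights. The causes were not tested. Of 135 member differences under alternatives, 116 kept direction and side of the threshold, 13 passed it and 6 turned. Much of this was fixed in advance. The replicate block, the dim filter, the fit of all probe sets and the trended moderation leave every difference as it was. Where no probe set was called, the side of the threshold could not change. Size was not part of the count, so Mcl1 at -0.37 after quantile normalization, against -1.73, counts as kept. On old replicate 3 alone Bcl2l11 lay between -0.86 and -1.01 in the alternatives, chosen after seeing the data, and its call was lost without young replicate 1 (-0.90).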
